A study of Mus musculus with 2 samples.

Results

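A set of 10 genes of the smooth muscle contractile apparatus was followed through single cells of regenerating mouse mammary epithelium: Acta2, Actg2, Myl9, Mylk, Myh11, Tagln, Cnn1, Tpm1, Tpm2 and Oxtr. They were picked by name, as 10 of the 27998 genes in the table of unique molecular identifiers (UMIs, counts of single captured mRNA molecules). Both libraries came from transplants in which basal and luminal mammary cells carrying the mTmG colour reporter were mixed and placed in the cleared fat pads of female nude mice aged 3 weeks, then dissected 5 days later and purified by flow cytometry. In the Ctrl library the basal donor cells were Fgfr2+/+, and in the Fgfr2 KO library they were Fgfr2Δ/Δ, the allele left after Cre acted on Fgfr2 fl/fl. All basal donor cells had been exposed to an adenovirus carrying Cre and GFP and were green. All luminal donor cells were Fgfr2+/+ and red, and whether they had been exposed to Cre is not stated. The Ctrl library held 268 cells and the Fgfr2 KO library 86 cells, with 1 library per group. No test between the libraries was therefore possible, and every interval below is a 95% interval that covers counting error only and leaves out the variation of animals, transplants and cells.

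The basal layer of the mammary gland is a myoepithelium. Its cells are epithelial and make keratins 5 and 14, but they also carry actin and myosin filaments of the smooth muscle type, and their contraction squeezes milk out of the alveoli. Contraction starts when oxytocin binds its receptor and intracellular calcium rises, which switches on myosin light chain kinase. The kinase phosphorylates the regulatory light chain and lets myosin pull on actin. Many of these genes are controlled through CArG boxes, the binding motif of serum response factor, which works with cofactors of the myocardin family.

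Promoters of 7 of the 10 genes, the 250 bases before the RefSeq start site in build GRCm38.p6, were searched for this motif because the genes moved together from cell to cell, as described below. Promoters of Actg2, Myh11 and Tagln were not analysed here. A CArG box whose 6 inner bases were allowed at most 1 G or C occurred in 8.59% of all 32851 promoters of this length, and it occurred upstream of Acta2 and Myl9, at 2 places each. The 4 matches are shown 5′ to 3′ in the gene's own direction, with the box in capitals. Those of Acta2 lay on the minus strand of chr19 at chr19:34255438-34255467 and chr19:34255388-34255417, which GENCODE M21 counts as untranslated leader because its Acta2 model starts further upstream. Those of Myl9 lay on the plus strand of chr2 at chr2:156775293-156775322 and chr2:156775355-156775384, outside any untranslated region that GENCODE M21 annotates.
Acta2, box 84 to 75 bases before the start: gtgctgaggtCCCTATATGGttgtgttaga
Acta2, box 34 to 25 bases before the start: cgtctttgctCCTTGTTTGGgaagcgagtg
Myl9, box 161 to 152 bases before the start: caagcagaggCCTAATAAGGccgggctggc
Myl9, box 99 to 90 bases before the start: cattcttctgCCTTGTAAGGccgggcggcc
Of these, the box of Myl9 that lies further from the start had only A and T at its 6 inner bases, a form found in 1.47% of all promoters. The MCAT element CATTCC, a motif of TEAD factors, was found on either strand in 12.6% of all promoters and upstream of Acta2, Mylk and Tpm1. Such matches describe the letters in these windows and do not show that a factor bound there.

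Cells were divided by their keratins. Ptprc encodes the leukocyte antigen CD45, and any cell in which it had a UMI was set aside as Ptprc-positive. Among the others, a cell was called basal keratin if its Krt14 and Krt5 UMIs outnumbered its Krt8 and Krt18 UMIs, luminal keratin in the opposite case, and unclassed if they were equal. This gave 68 basal keratin, 117 luminal keratin, 10 unclassed and 73 Ptprc-positive cells in the Ctrl library, and 22, 31, 10 and 23 in the Fgfr2 KO library. The classes are ranges along a keratin balance, and only 56 of the 68 and 15 of the 22 basal keratin cells had at least 10 keratin UMIs with at least a 2-fold majority. Luminal keratin cells of both libraries likewise include cells with at most 5 keratin UMIs. Although the samples are labelled as epithelial cells, 27.2% and 26.7% of the cells in the libraries carried Ptprc. The median depth was 15578.5 and 16372 UMIs in basal keratin cells, 20160 and 15029 in luminal keratin cells, and 12228 and 6729 in Ptprc-positive cells, Ctrl and Fgfr2 KO respectively. Fgfr2 itself gave 42 UMIs in Ctrl and 7 UMIs in Fgfr2 KO basal keratin cells, or 32.4 UMIs per 1000000 UMIs of the class (23.4–43.8) and 21.9 (8.81–45.1). Those intervals overlap, and a count of this transcript says nothing of the deletion where the counted part lies outside the deleted part, so it did not check the labels. Keratin class does not show the donor of a cell either. The paper reports basal donor cells, many of them without Fgfr2, that had become luminal in such transplants. The genotype of a single cell in either class is therefore not known.

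The contractile genes were far more abundant in basal keratin cells than in luminal keratin cells of the same library. Their summed level was 5192 UMIs per 1000000 UMIs (CPM; 5068–5317) in Ctrl basal keratin cells and 1800 (1751–1850) in Ctrl luminal keratin cells, a 2.88-fold difference. In the Fgfr2 KO library the summed levels were 8130 (7820–8449) and 1441 (1348–1539), a 5.64-fold difference. In each library 9 of the 10 genes were past 2-fold higher in basal keratin cells and none was past 2-fold lower, Tpm1 being the exception. Of all genes with at least 20 UMIs, 5.07% were past 2-fold higher and 9.65% past 2-fold lower in this comparison in Ctrl, of 9838 genes. The shares were 7.23% and 14.1% of 5174 genes in Fgfr2 KO. The median log2 ratio of the 10 genes was 2.59 in Ctrl and 3.51 in Fgfr2 KO, against −0.12 and −0.16 for all genes.

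**Figure D1:**
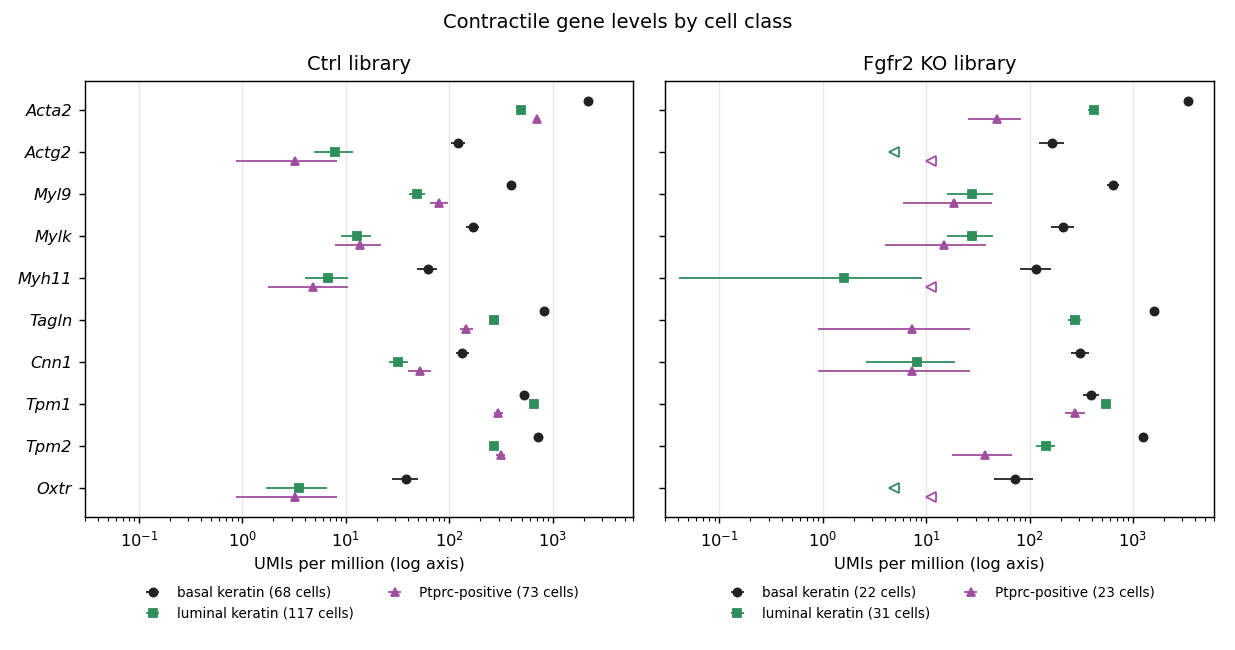
Levels of the 10 genes in CPM on a log axis, with exact Poisson 95% intervals, in basal keratin, luminal keratin and Ptprc-positive cells of the Ctrl and Fgfr2 KO libraries. Open triangles stand at the level of 3 counts where a gene had 0 UMIs. Basal keratin cells hold the highest level of every gene except Tpm1, which was at 655 in Ctrl luminal keratin cells and 533 in Ctrl basal keratin cells.

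Acta2 encodes smooth muscle α-actin, the filament protein by which myoepithelium is usually recognised, and lies at chr19:34241090-34255590. In basal keratin cells Ctrl stood at 2199 CPM (2119–2282) and Fgfr2 KO at 3381 CPM (3182–3589). Luminal keratin cells held 490 CPM (465–517) and 417 CPM (367–471). The log2 ratio of basal over luminal was 2.16 (2.07–2.26) in Ctrl and 3.02 (2.82–3.22) in Fgfr2 KO, and the intervals of the classes did not overlap in either library. From cell to cell Acta2 ranged widely. Ctrl basal keratin cells had 0 to 146 Acta2 UMIs per 10000 UMIs of the cell with a median of 18.1, and Fgfr2 KO basal keratin cells 0 to 88.9 with a median of 25.1. An Acta2 UMI was present in 65 of 68 and 19 of 22 basal keratin cells.

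Actg2, the gene of smooth muscle γ-actin (chr6:83512905-83536265), gave 157 UMIs in Ctrl basal keratin cells and 53 in Fgfr2 KO, which is 121 CPM (103–142) and 166 CPM (124–217). It was almost absent from luminal keratin cells, with 22 UMIs or 7.81 CPM (4.89–11.8) in Ctrl and 0 UMIs of 617036 in Fgfr2 KO. The log2 ratio was 3.96 (3.31–4.67) in Ctrl, and in Fgfr2 KO the gene was at least 34.1-fold higher in basal keratin cells, reckoned against a floor of 3 counts over the luminal keratin cells. An Actg2 UMI was seen in 27 of 68 and 10 of 22 basal keratin cells, a count that depends on depth and does not limit how many cells expressed it, and a single Fgfr2 KO cell held 54.7% of its UMIs there. The coding stretches of the actin genes are nearly alike, so reads that fit several of them cannot be assigned, and Acta2 and Actg2 levels are uncertain to that degree.

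The myosin genes followed the actins. Myh11, which encodes the smooth muscle myosin heavy chain (chr16:14194535-14291372), was at 61.8 CPM (49.0–76.9) in basal keratin cells of Ctrl and 116 CPM (81.6–160) in those of Fgfr2 KO. Luminal keratin cells had 19 Myh11 UMIs in Ctrl, 6.74 CPM, and 1 UMI in Fgfr2 KO. Its log2 ratio of basal over luminal was 3.2 (2.46–4.0) and 6.16 (3.59–11.5). Myl9, the regulatory light chain that the kinase phosphorylates (chr2:156775420-156781658), was at 396 CPM (363–432) and 639 CPM (554–733) in basal keratin cells. Its luminal levels were 49.0 CPM (41.1–57.9) and 27.6 CPM (16.0–44.1), so that the log2 ratio was 3.02 (2.74–3.30) in Ctrl and 4.53 (3.82–5.34) in Fgfr2 KO. Mylk, the kinase itself (chr16:34745210-35002420), was at 168 CPM (147–192) and 210 CPM (163–266) in basal keratin cells against 12.8 CPM (8.95–17.7) and 27.6 CPM (16.0–44.1) in luminal keratin cells. The log2 ratios of Mylk were 3.72 (3.21–4.27) and 2.93 (2.14–3.79). A single luminal keratin cell of Fgfr2 KO, chosen after its values were seen because it had 19 UMIs of the pericyte marker Rgs5, held 14 of the 17 Myl9 and 11 of the 17 Mylk UMIs of its class, and without it the Fgfr2 KO ratios were 6.99 (5.43–9.28) for Myl9 and 4.39 (3.19–5.88) for Mylk. It also held the only Myh11 UMI, so that without it the Myh11 ratio was no more than a bound, at least 4.53 by the floor of 3 counts.

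Among the proteins that sit on the actin filament, Tagln encodes transgelin, an actin-binding protein of smooth muscle (chr9:45929619-45936058). It was at 822 CPM (774–873) and 1584 CPM (1449–1728) in basal keratin cells and at 273 CPM (254–293) and 272 CPM (233–317) in luminal keratin cells, with log2 ratios of 1.59 (1.45–1.72) and 2.54 (2.29–2.80). Cnn1 encodes calponin, which holds back the myosin motor (chr9:22099216-22109630). Its basal levels were 134 CPM (115–156) and 310 CPM (252–377) against luminal levels of 32.3 CPM (26.0–39.7) and 8.10 CPM (2.63–18.9), or log2 ratios of 2.06 (1.68–2.44) and 5.26 (3.99–6.91). Tagln was the less restricted of these genes, with a UMI in 35.0% of Ctrl luminal keratin cells as against 18.8% for Cnn1.

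The tropomyosins, rod proteins that lie along actin and set which myosins may bind, parted from each other. Tpm2 (chr4:43514711-43523765) was at 718 CPM (673–766) and 1258 CPM (1138–1388) in basal keratin cells and at 269 CPM (250–289) and 143 CPM (114–176) in luminal keratin cells. Its log2 ratio was 1.42 (1.28–1.56) in Ctrl and 3.14 (2.81–3.49) in Fgfr2 KO. Tpm1 (chr9:67022590-67049406) stood the other way round. It was at 533 CPM (494–574) and 394 CPM (329–470) in basal keratin cells and at 655 CPM (625–685) and 545 CPM (488–606) in luminal keratin cells, with log2 ratios of −0.30 (−0.43 to −0.17) and −0.47 (−0.77 to −0.17). Tpm1 makes muscle and non-muscle isoforms from a single gene and these counts do not separate them. A Tpm1 UMI was found in 94.1% of Ctrl basal and 94% of Ctrl luminal keratin cells.

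Oxtr, the oxytocin receptor through which contraction is triggered (chr6:112473683-112489943), was sparse. It gave 49 UMIs in 24 of 68 Ctrl basal keratin cells and 23 UMIs in 10 of 22 Fgfr2 KO basal keratin cells, which is 37.8 CPM (28–50) and 72.0 CPM (45.6–108). Ctrl luminal keratin cells held 10 UMIs in 7 of 117 cells, 3.55 CPM (1.70–6.53), and Fgfr2 KO luminal keratin cells held 0. The log2 ratio was 3.41 (2.42–4.56) in Ctrl, and Oxtr was at least 14.8-fold higher in Fgfr2 KO basal keratin cells by the floor of 3 counts. Although rare, Oxtr was among the genes that best parted the classes, with 99.8% of all genes at or below its Ctrl ratio.

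Within each protein family, the genes of the contractile set took a larger part in basal keratin cells. Acta2 and Actg2 made up 20% (19.4–20.7) of the UMIs of the 4 actins that also include the non-muscle genes Actb and Actg1 in Ctrl basal keratin cells and 32.8% (31.2–34.4) in Fgfr2 KO, against 4.26% (4.05–4.49) and 4.88% (4.31–5.50) in luminal keratin cells. Myh11 made up 22.9% (18.6–27.7) and 34.3% (25.4–44.0) of the heavy chain UMIs shared with Myh9 and Myh10 in basal keratin cells, and 2.83% (1.71–4.38) and 1.28% (0.0325–6.94) in luminal keratin cells. For Myl9 among the regulatory light chains with Myl12a and Myl12b the shares were 21.5% (19.9–23.2) and 32.6% (28.9–36.4) in basal keratin cells and 3.11% (2.62–3.66) and 2.32% (1.36–3.69) in luminal keratin cells. Tropomyosin differed less, and its share is not that of a muscle isoform because Tpm1 also makes non-muscle forms. Tpm1 and Tpm2 made up 66.5% (64.6–68.4) and 75.8% (72.4–78.9) of the UMIs of the 4 tropomyosin genes in basal keratin cells and 54.5% (53.1–56.0) and 53.8% (50.3–57.3) in luminal keratin cells. In all 4 families the basal share exceeded the luminal share in both libraries, with intervals that did not overlap. UMIs are not scaled to transcript length, so these shares are compared between cells and not between genes.

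Leukocytes should lack most of these genes, and Ptprc-positive cells therefore show the level that free RNA and mixed droplets can give. Acta2 had a UMI in 58.9% of Ctrl and 39.1% of Fgfr2 KO Ptprc-positive cells, against 95.6% and 86.4% of basal and 72.6% and 58.1% of luminal keratin cells. After each cell was thinned to 5000 UMIs, with shallower cells left out, the Acta2 shares were 83.3% of 66 basal, 40.7% of 113 luminal and 29.4% of 68 Ptprc-positive cells in Ctrl. In Fgfr2 KO they were 78.9% of 19, 37.0% of 27 and 35.3% of 17. The thinned Acta2 share of luminal keratin cells was thus close to the background share in Fgfr2 KO, whereas basal keratin cells stood above it in both libraries. In Ctrl the luminal (31.6–50.4) and Ptprc-positive (19.0–41.7) intervals overlapped too. By level, Acta2 was at 417 CPM in Fgfr2 KO luminal keratin cells, with 117 of 257 UMIs in 1 cell. It was at 42.7 CPM (18.4–84.1) in 22 of the 23 Fgfr2 KO Ptprc-positive cells. The summed level of the 10 genes in Ctrl Ptprc-positive cells, 1617 CPM, rested on few cells, as 4 of 73 cells held 86.2% of those UMIs. Each of the 4 also carried 194 to 891 keratin UMIs and 1 to 4 Ptprc UMIs. The other 69 cells were at 276 CPM (245–311), and 22 of the 23 Fgfr2 KO cells at 219 CPM (157–297). A doublet caller, Scrublet, called 2 Ctrl and 6 Fgfr2 KO cells, and doublets were kept.

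To count the basal keratin cells that lacked the contractile programme, the summed UMIs of the 10 genes per 10000 UMIs of a cell were set against a threshold of 6.98, the 95th percentile of the 96 Ptprc-positive cells of both libraries. At or below it lay 6 of 68 Ctrl basal keratin cells, 8.82% (3.31–18.2), and 7 of 22 Fgfr2 KO basal keratin cells, 31.8% (13.9–54.9). These intervals overlap. The count depends on depth, on the keratin and Ptprc rules and on the threshold. With each cell thinned to 5000 UMIs it was 14 of 66 cells in Ctrl, 21.2%, and 6 of 19 in Fgfr2 KO, 31.6%. Under the stricter keratin rule it was 4 of 56 cells, 7.14%, and 1 of 15 cells, 6.67%, so that the Fgfr2 KO share was no longer the higher. The same held with the threshold at the 95th percentile of luminal keratin cells, where it was 45 of 68 in Ctrl, 66.2%, and 12 of 22, or 54.5%, in Fgfr2 KO. With cells set aside only at 2 or more Ptprc UMIs the count was 14 of 77 cells in Ctrl, 18.2%, and 8 of 23 in Fgfr2 KO, 34.8%. Without Acta2 altogether were 3 cells in each library, and at most 2 of the 10 genes were seen in 3 Ctrl and 4 Fgfr2 KO cells. By contrast, 8 or more of the 10 genes had a UMI in 36 of 68 and 11 of 22 basal keratin cells.

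**Figure D2:**
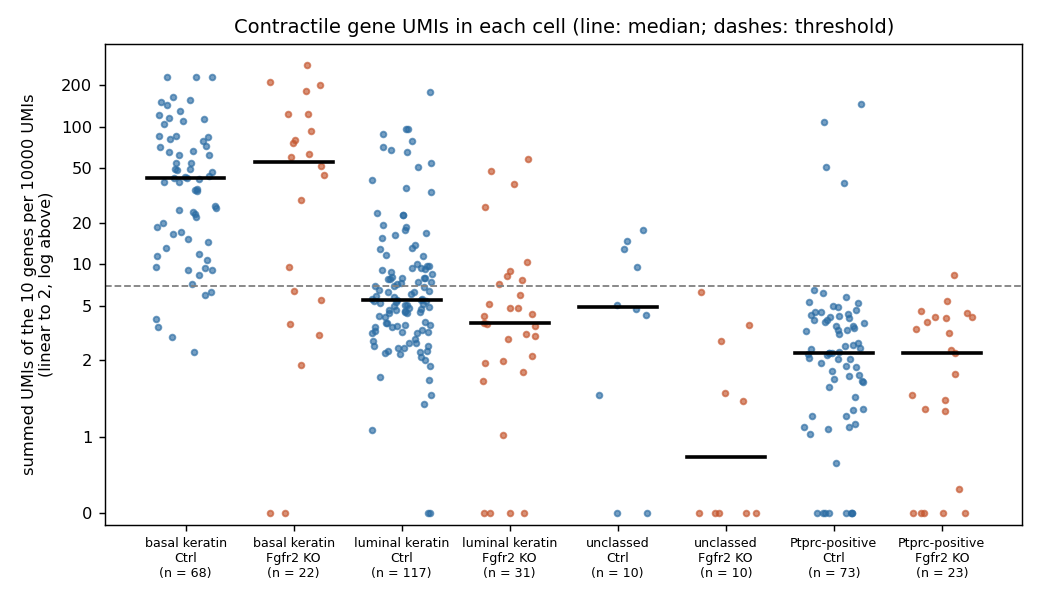
Summed UMIs of the 10 genes per 10000 UMIs of each cell, by class and library, on an axis that is linear to 2 and logarithmic above. Points are cells, bars are medians (42.1 and 55.8 in Ctrl and Fgfr2 KO basal keratin cells, 5.49 and 3.74 in luminal keratin cells, 2.27 and 2.28 in Ptprc-positive cells) and the dashed line is the threshold of 6.98. Basal keratin cells spread from 0 to 282, with 1 Fgfr2 KO cell between the threshold and 29.3.

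Ctrl basal keratin cells formed a range without a clear gap at the threshold, whereas those of Fgfr2 KO had a step just above it, from 9.53 to 29.3 per 10000 with no cell between. The nearest Ctrl cells on either side of the threshold stood at 6.33 and 7.15 per 10000, and those of Fgfr2 KO at 6.39 and 9.53. Between 0.5 and 1 times the threshold lay 4 Ctrl and 3 Fgfr2 KO cells, and between 1 and 2 times the threshold 10 Ctrl cells and 1 Fgfr2 KO cell. At the upper end, 13 Ctrl and 6 Fgfr2 KO basal keratin cells exceeded 100 per 10000, with the highest at 230 and 282.

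The cells at or below the threshold were of several kinds. In the Ctrl library they had 5, 18, 6, 72, 8 and 48 Krt14 and Krt5 UMIs, in order of rising contractile level. The cells with 72 and 48 such UMIs thus had a clear basal keratin signal at 14952 and 17384 UMIs of depth, yet only 6 and 11 contractile UMIs, of which 4 in each were Tpm1. The lowest Ctrl cell had 1 contractile UMI, from Myh11, and 37.2% of its 4326 UMIs were mitochondrial. Another had 361 Col1a1 and 486 Col3a1 UMIs, which are collagen genes of fibroblasts. In the Fgfr2 KO library 4 of the 7 cells had only 1 or 2 basal keratin UMIs and no luminal keratin UMI, and the other 3 had 52, 70 and 34. The immune marker list, which included Cd74 and Lyz2, had a median of 30.1 UMIs per 10000 in the 7 Fgfr2 KO cells and 1.80 in the 15 cells above the threshold. In Ctrl these medians were 7.82 and 5.54. The 7 Fgfr2 KO cells were split on this list. It stood at 30.1 to 249 per 10000 in the 4 cells with 1 or 2 keratin UMIs, and at 0.611 to 3.73 in the other 3. Ptprc was at 0 in all basal keratin cells by the rule that defined them, and what part other cell types had in the count was not tested.

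**Figure D3:**
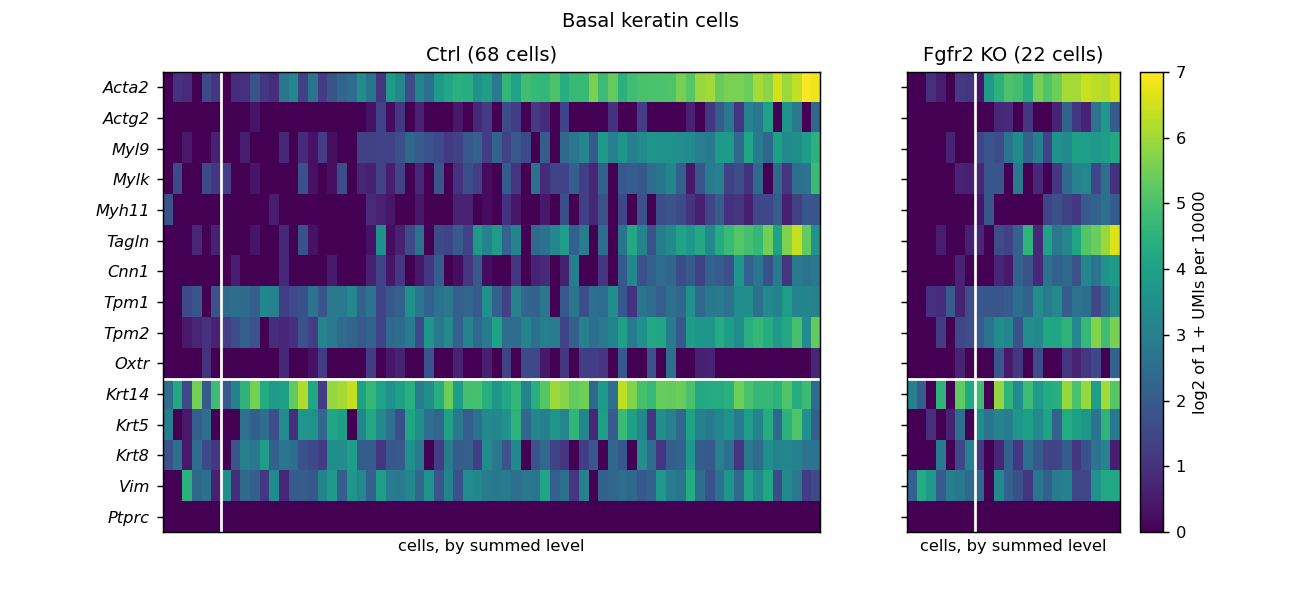
Basal keratin cells of each library as columns, ordered by the summed level of the 10 genes, with the colour giving log2 of 1 plus UMIs per 10000 for each contractile gene and, under the horizontal line, for Krt14, Krt5, Krt8, Vim and Ptprc. The vertical line marks the threshold of 6.98, with 6 of 68 Ctrl and 7 of 22 Fgfr2 KO cells to its left. Acta2, Myl9, Tagln, Cnn1 and Tpm2 brighten together to the right, while Oxtr is scattered.

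Across basal keratin cells the contractile genes varied together. Over the 45 pairs of genes the median Spearman correlation was 0.44 in the 68 Ctrl cells, with 41 pairs above 0 and a range from −0.23 to 0.80, and 0.68 in the 22 Fgfr2 KO cells, with all 45 pairs above 0 and a range from 0.16 to 0.91. Acta2 had a correlation of 0.86 in Ctrl and 0.95 in Fgfr2 KO with the sum of the other 9 genes. Myl9 stood at 0.86 and 0.93, Tpm2 at 0.80 and 0.92, Tagln at 0.77 and 0.90, and Cnn1 at 0.74 and 0.92. Tpm1 was looser in Ctrl at 0.38 and stood at 0.74 in Fgfr2 KO. Oxtr had the lowest value in both libraries, 0.08 and 0.52, on 49 and 23 UMIs. These correlations describe cells of 1 library each, which share their preparation, and each gene is scaled by the same cell total. The 22 Fgfr2 KO cells include the 4 with 1 or 2 keratin UMIs, at 0 to 3.67 contractile UMIs per 10000. Correlations without those 4 cells were not computed. Total UMIs of the cell correlated with the summed contractile level at −0.08 in Ctrl and 0.28 in Fgfr2 KO, the mitochondrial share at 0.01 and 0.16, and Krt5 at 0.39 and 0.72. The immune list stood at −0.07 in Ctrl but −0.72 in Fgfr2 KO, where the cells with few keratin UMIs had low contractile levels.

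Of 3116 other genes with at least 50 UMIs in at least 10 Ctrl basal keratin cells, Myl6 was most like the summed contractile genes, with a correlation of 0.71 in Ctrl and 0.90 in Fgfr2 KO. Myl6 encodes the essential light chain that smooth and non-muscle myosin share. Next came Dstn, the actin-severing protein destrin, at 0.64 and 0.76. Vwa1, a matrix protein, stood at 0.62 and 0.59, and Tgfb1i1, a cofactor of focal adhesions and nuclei, at 0.60 and 0.59. The list was completed by Cnn2 (0.60 and 0.66), a calponin of non-muscle cells, Cotl1 (0.59 and 0.51), an actin-binding protein, Msrb1 (0.58 and 0.67), a methionine sulfoxide reductase, and Sparc (0.55 and 0.81), a matrix glycoprotein. The median over all 3116 genes was 0.0062.

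In basal keratin cells most contractile genes were at a higher level in the Fgfr2 KO library than in the Ctrl library, mostly by less than 2-fold. The summed level of 8130 against 5192 CPM was a log2 ratio of 0.65 (0.58–0.71), and the median ratio of the 10 genes was 0.75, against −0.12 for all 6863 genes. Cnn1 alone was past 2-fold, at 1.21 (0.84–1.57), or 1 of 10 genes, where 4.36% of all genes were past 2-fold higher and 11.2% past 2-fold lower. This depended on the processing, since Cnn1 was at 0.98 with cells thinned to 5000 UMIs, 0.94 without the richest cells and 0.72 as a mean over cells. Under the stricter keratin rule Tagln (1.17), Myh11 (1.14), Oxtr (1.29) and Tpm2 (1.11) were past 2-fold beside Cnn1 (1.42), or 5 of 10 where 3.81% of all genes were. The same 5 genes were past 2-fold with no Ptprc filter, from 1.05 for Tpm2 to 1.43 for Cnn1, where 4.76% of all genes were. All of them but Tpm2 were so with cells set aside at 2 or more Ptprc UMIs, where 4.48% of all genes were. Tagln was at 0.95 (0.79–1.10), Oxtr at 0.93 (0.15–1.67), Myh11 at 0.91 (0.30–1.49), Tpm2 at 0.81 (0.64–0.98), Myl9 at 0.69 (0.45–0.93) and Acta2 at 0.62 (0.52–0.72). Without the richest cells Oxtr was at 0.43 (−0.48 to 1.27), an interval that held 0. With cells thinned to 5000 UMIs the intervals of Myh11, at 1.03 (−0.26 to 2.24), Oxtr, at 0.99 (−0.47 to 2.34), and Myl9, at 0.27 (−0.22 to 0.73), held 0 as well. For Actg2, at 0.45 (−0.02 to 0.91), and Mylk, at 0.32 (−0.10 to 0.72), the counting interval held 0. Tpm1 stood apart with a lower level in Fgfr2 KO, at −0.43 (−0.72 to −0.16), but it was at 0.04 when cells were thinned to 5000 UMIs. Mylk changed sign too, to −0.26 with thinned cells and −0.13 as a mean over cells.

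How large the difference looks depends on a few cells. In Fgfr2 KO 1 basal keratin cell held 549 of the 2597 contractile UMIs, 21.1%, including 36.8% of all Tagln UMIs. Without the richest cell of each class and library the summed ratio was 0.44 (0.36–0.51), and with every cell weighing alike it was 0.39. Under the stricter keratin rule, which left 15 Fgfr2 KO cells, it was 0.94 (0.87–1.01). The cells of both libraries overlapped almost entirely, from 2.31 to 230 per 10000 with a median of 42.1 in Ctrl and from 0 to 282 with a median of 55.8 in Fgfr2 KO. Other marker lists also differed between the basal keratin cells of the libraries. For Ctrl and then Fgfr2 KO, the luminal list was at 2257 and 1330 CPM, the fibroblast list at 1481 and 160 CPM and the cell cycle list at 1201 and 623 CPM. The immune list was close in sum, at 757 and 773 CPM, but its genes went both ways. Of its 5 genes with a ratio, 2 were past 2-fold higher in Fgfr2 KO and 1 past 2-fold lower, where 4.36% and 11.2% of all genes were. A single Ctrl cell, with 361 Col1a1 and 486 Col3a1 UMIs, held 1350 of the 1918 fibroblast list UMIs, 70.4%, and without it the Ctrl level was 447 CPM. Their part in the result was not tested. With 1 library each, the genotype cannot be told apart from the transplant and library. Keratin class also does not show which donor a cell came from.

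**Figure D4:**
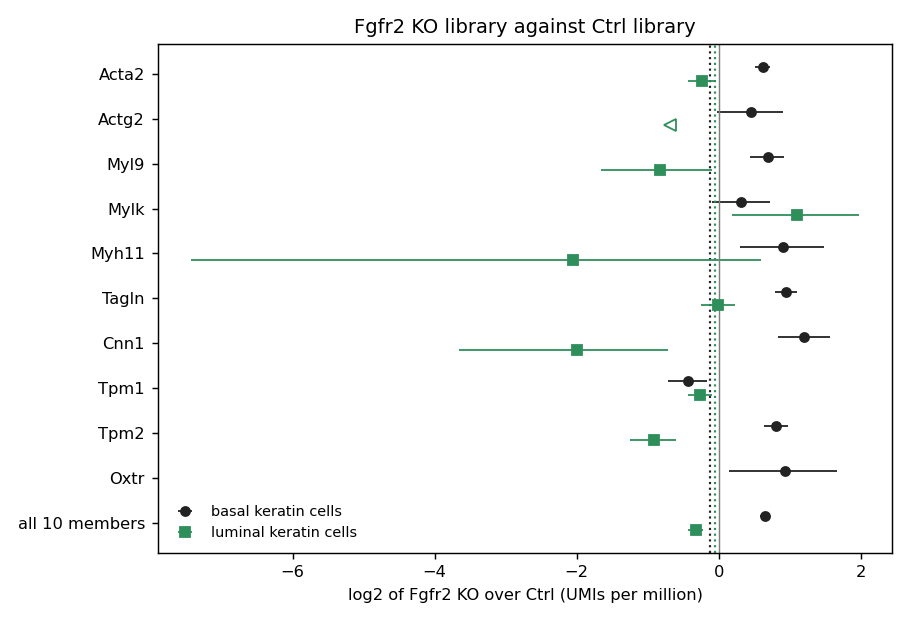
Log2 ratio of the Fgfr2 KO library over the Ctrl library for each contractile gene and for their sum, in basal keratin (circles) and luminal keratin (squares) cells, with exact conditional 95% counting intervals. The open triangle is a bound for Actg2, which had 0 UMIs in Fgfr2 KO luminal keratin cells, Oxtr has no luminal value at this depth, and dotted lines are the medians of all genes (−0.12 and −0.06). In basal keratin cells 9 of 10 genes lie to the right of 0, and Tpm1 lies at −0.43.

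Luminal keratin cells did not show the same pattern. Their summed contractile level was 1441 CPM in Fgfr2 KO and 1800 CPM in Ctrl, a log2 ratio of −0.32 (−0.43 to −0.22). Cnn1 was at −1.99 (−3.65 to −0.72) on 5 against 91 UMIs and Myh11 at −2.06 (−7.43 to 0.60) on 1 against 19 UMIs, which made 2 of 9 genes with a ratio past 2-fold lower where 8.58% of 9459 genes were. Mylk was past 2-fold higher at 1.11 (0.18–1.98) on 17 against 36 UMIs, where 4.06% of genes were. The cell with 19 Rgs5 UMIs, which had only 2 Krt8 and Krt18 UMIs beside 34 Col1a1 and 76 Col3a1 UMIs, decided several of these values. It held 11 of those 17 Mylk UMIs, and without it Mylk was at −0.35 (−1.89 to 0.91) on 6 UMIs. It held the single Myh11 UMI, and without it Myh11 had 0 against 19 UMIs, too few to place it past 2-fold lower. Myl9 then was past 2-fold lower, at −3.29 (−5.58 to −1.71) on 3 against 138 UMIs. For Acta2, Myl9, Cnn1 and Tpm2 the counting interval lay above 0 in basal and below 0 in luminal keratin cells, 4 of the 9 genes with both ratios, where 0.635% of 6768 genes did so. Tagln was nearly level at −0.01 (−0.25 to 0.24), but 1 Fgfr2 KO cell held 104 of its 168 UMIs there, 61.9%. In Fgfr2 KO 1 luminal keratin cell held 45.6% of the contractile UMIs. Other lists also differed between the luminal keratin cells of the libraries. For Ctrl and then Fgfr2 KO, the fibroblast list was at 2449 and 929 CPM, the basal list at 1820 and 1107 and the luminal list at 8714 and 6071. Non-muscle actin, myosin and tropomyosin genes were at 14905 and 10899 CPM. The immune list, at 990 and 1274 CPM, and the cell cycle list, at 1125 and 1241, were higher in Fgfr2 KO. The part of these lists was not tested.

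Contractile UMIs in luminal keratin cells were concentrated in few cells. At or above the Ctrl basal keratin median of 42.1 per 10000 lay 10 of 117 Ctrl and 2 of 31 Fgfr2 KO luminal keratin cells, and these 12 cells held 60.0% of the contractile UMIs of all 148. They were split by Krt5 after their values had been seen. The 2 cells with 5 and 7 Krt5 UMIs, both Ctrl, held all contractile genes between them, with 1 and 6 Myh11 UMIs, 9 Mylk and 2 Oxtr UMIs in total, and 3 Vim UMIs each. The other 10 cells, 8 Ctrl and 2 Fgfr2 KO, had 0 to 2 Krt5 UMIs and 83 to 502 UMIs of Vim, the intermediate filament gene of mesenchymal cells, where the 47 basal keratin cells at or above the same level had a median of 8. All 10 had UMIs of Acta2 (18 to 261), Tagln (22 to 200), Tpm1 (33 to 144) and Tpm2 (5 to 233). None had a UMI of Mylk, Myh11 or Oxtr among 462817 UMIs in all, where 3 counts would be 6.48 CPM. In the 47 basal keratin cells Mylk stood at 318 CPM, Myh11 at 138 CPM and Oxtr at 70.5 CPM.

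Actg2 had 6 UMIs in 3 of the 10 cells, 13 CPM (4.76–28.2), against 260 CPM (224–300) in the 47 basal keratin cells. These 10 cells thus held Acta2, Tagln, Tpm1 and Tpm2, with little Actg2 and no UMI of the heavy chain, kinase or receptor gene. Tpm1 made up 24.7% of their contractile UMIs against 5.71% in the 47 basal keratin cells, and Myl9 1.46% against 8.11%. They were deep, with a median of 40943 UMIs, and the fibroblast marker list stood at a median of 19.6 per 10000 in them and 1.70 in the basal keratin cells. They held 48 to 956 Krt8 and Krt18 UMIs, and their pericyte list reached at most 1.49 per 10000. What part fibroblast RNA or doublets had in them was not tested. The Fgfr2 KO luminal keratin cell with 19 Rgs5 UMIs was not among them, at 38.5 contractile UMIs per 10000.

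**Figure D5:**
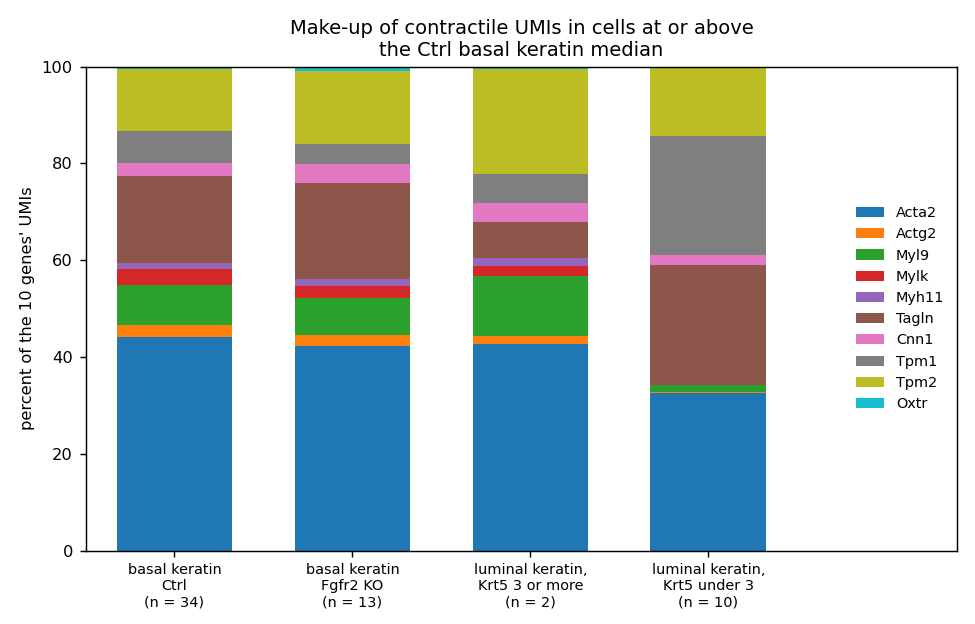
Share of each of the 10 genes in their summed UMIs, in percent, for cells at or above 42.1 per 10000: basal keratin cells of each library (34 and 13 cells), 2 luminal keratin cells with 3 or more Krt5 UMIs and 10 with fewer. Acta2 takes the largest share in every bar, Tpm1 takes 24.7% in the 10 cells and 5.95% in the 2 cells, and Mylk, Myh11 and Oxtr are missing from the bar of the 10 cells.

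Other genes of the contractile pathway were less clearly basal. Of 18 further smooth muscle and cytoskeletal linker genes, 16 had enough UMIs in Ctrl, and 7 were past 2-fold higher and 3 past 2-fold lower in basal than in luminal keratin cells, where 5.07% and 9.65% of all genes were. Higher were Lmod1 (leiomodin, log2 ratio 2.75), Pdlim3 (2.13), Pgm5 (1.98), Itga8 (1.61), Ckb (1.16), Smtn (smoothelin, 1.10) and Cald1 (caldesmon, 1.07), and lower were Fhl1 (−3.2), Des (desmin, −2.55) and Csrp2 (−1.32). In Fgfr2 KO 5 of 9 were past 2-fold higher, where 7.23% of all genes were, namely Ckb (3.76), Smtn (2.34), Cald1 (1.93), Pdlim3 (1.67) and Csrp1 (1.01). Between the libraries 1 of 14, Ckb, passed 2-fold higher in basal keratin cells, at 1.74 on 56 against 68 UMIs, a share near the 4.36% of all genes. The summed level of this list correlated with that of the 10 genes at 0.72 and 0.91 across basal keratin cells.

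Non-muscle actin, myosin and tropomyosin genes differed less between the classes than the 10 contractile genes, with median log2 ratios of −0.19 in Ctrl and 0.17 in Fgfr2 KO. Of 9 such genes 1, Myh10, was past 2-fold higher in Ctrl basal keratin cells, at 1.31 on 24 against 21 UMIs, and of 8 in Fgfr2 KO none was, where 5.07% and 7.23% of all genes were. Smaller differences were common. In Ctrl the counting interval lay above 0 for 2 and below 0 for 5 of the 9, where it did for 10.5% and 16.2% of all genes, and in Fgfr2 KO above 0 for 3 and below 0 for 2 of the 8, where it did for 10% and 15%. Such counts also depend on how many UMIs a gene has. Actb was at −0.33 (−0.37 to −0.29) and −0.29 (−0.39 to −0.20), Actg1 at −0.19 (−0.24 to −0.14) and 0.02 (−0.09 to 0.13), and Myl6 at 0.18 (0.10–0.26) and 0.99 (0.81–1.16). Of 23 genes that carry the signal from the receptor to myosin, 20 had enough UMIs in Ctrl. In Ctrl 1 of the 20 was past 2-fold higher and 3 past 2-fold lower in basal keratin cells, where 5.07% and 9.65% of all genes were. The higher gene was Rgs2, a brake on Gq signalling, at 1.58 in Ctrl and 1.45 in Fgfr2 KO. The lower genes were Itpr1 (−1.63), Plcb4 (−1.38) and Itpr3 (−1.14). In Fgfr2 KO 2 of 13 were past 2-fold lower, where 14.1% of all genes were. These were Rock2 (−1.25) and Rgs5, with 0 against 20 UMIs, of which the cell named above held 19. Between the libraries 1 of 13, Plcb3, was past 2-fold lower in basal keratin cells, at −1.44 on 2 against 22 UMIs, where 11.2% of all genes were. These shares lay near those of all genes. The GTPase gene Rhoa was at −0.10 in Ctrl.

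Among transcription regulators of smooth muscle genes, Myocd, the myocardin gene, had 0 UMIs in basal and luminal keratin cells of both libraries, which at 1295302 UMIs in Ctrl basal keratin cells allows up to 2.32 CPM by the floor of 3 counts. Srf was at −0.42 in Ctrl on 23 against 67 UMIs and the related cofactors Mkl1 and Mkl2 at −0.40 and 0.15. Of 9 regulators with enough UMIs in Ctrl, Trp63 (2.08), a regulator of basal epithelium that the basal marker list also holds, Mef2c (1.97) and Tgfb1i1 (1.77) were past 2-fold higher in basal keratin cells, or 3 of 9 where 5.07% of all genes were. In Fgfr2 KO this was 1 of 6, Tgfb1i1 at 3.19 (1.99–4.61), where 7.23% of all genes were. Between the libraries 0 of 8 regulators were past 2-fold in basal keratin cells, where 4.36% of all genes were higher and 11.2% lower.

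Markers of other contractile cells were sparse in basal keratin cells. The pericyte and vascular smooth muscle list of 8 genes gave 52 and 17 UMIs, from 0 to 2.31 per 10000 in Ctrl and 0 to 3.36 in Fgfr2 KO cells. That was 40.1 and 53.2 CPM, against 48.6 and 102 CPM in luminal keratin cells. Of its 3 genes with enough UMIs in Ctrl, 1 was past 2-fold higher in basal keratin cells and 2 past 2-fold lower. Of all genes, 5.07% and 9.65% were. Higd1b was at 0 in both libraries and Rgs5 had 1 UMI in Ctrl and 0 in Fgfr2 KO. The skeletal muscle list of 6 genes gave 16 UMIs and 1 UMI, with Ckm, Tnnt3 and Myh4 at 0 in both. The fibroblast list of 7 genes ranged from 0 to 524 per 10000 in Ctrl basal keratin cells, where the highest value belonged to a cell without the contractile programme, and from 0 to 11.7 in Fgfr2 KO. The basal list, which holds the class-defining Krt14 and Krt5 and so parts the classes by construction, stood at a median of 82.8 and 64.6 per 10000 in basal keratin cells against 9.28 and 4.64 in luminal keratin cells. The cell cycle list correlated with the summed contractile level at −0.10 and −0.08 across basal keratin cells.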

How the data were processed

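The data were droplet-based single-cell RNA sequencing of 1 Ctrl and 1 Fgfr2 KO library. The authors made the deposited values, raw UMI counts per gene and cell, with Cell Ranger, for which their methods and the submitters' processing notes name different versions (2.1.1 and build mm10 in the notes), and then ran its aggr step over both libraries. Whether aggr equalised depth by discarding reads, as it does unless told otherwise, is not given in the sources used here. The study removed CD45-positive cells at a level it did not give, and kept fewer cells than a filter on any Ptprc UMI leaves here. This table of 28000 rows, of which 2 are reporters, still held Ptprc-positive cells. Column prefixes gave each cell its library, and 0 barcodes occurred in both. The Ctrl library held 5458515 UMIs, from 4086 to 96751 per cell, and the Fgfr2 KO library 1253032, from 1367 to 84314.

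For each class the UMIs of a gene were added up and expressed per 1000000 UMIs of the class, with exact Poisson 95% intervals. Intervals of ratios came from the conditional binomial distribution and those of shares from the exact Clopper-Pearson method (Python 3.11.15, scipy 1.17.1), and all cover counting error only. Against 0 UMIs a ratio is a bound at 3 counts over the group, and ratios over all genes need 20 UMIs. The intervals of ratios were tried only on counts simulated from the same counting model. That leaves out the crowding of UMIs in single cells, so it does not show how the intervals hold for these data. Doublets were called with Scrublet in scanpy 1.11.5. Correlations are Spearman's, on log1p of UMIs per 10000. All 10 genes are named, with the genes of each other list that have the most UMIs or pass 2-fold and the 8 genes most like the summed members. Some genes of the signalling list are not reported here. Names of the genes past 2-fold, single cells and the split by Krt5 were taken after the values were seen. The 10 genes and the lists were chosen with earlier results of these data known. Gene positions are from GENCODE M21 (GRCm38) and promoters from RefSeq. The alternatives tried were other keratin and Ptprc rules, scalings, depth, quality and doublet filters, thresholds, the richest cell left out, and the genes without Myl9, Tpm1 and Tpm2. Added after seeing the data were 1 luminal keratin cell rich in Rgs5 left out and 1 Ctrl basal keratin cell rich in fibroblast genes left out. Their effect is given at the end.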

Additional observations from a re-analysis of the deposited data

Results flagged for a closer look

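The ratio of Fgfr2 KO over Ctrl lay above 0 in basal keratin cells and below 0 in luminal keratin cells, with counting intervals that excluded 0 on both sides, for 4 of the 9 genes with both ratios, where 0.635% of 6768 genes showed it. On the log2 scale Acta2 was at 0.62 in basal and −0.24 in luminal keratin cells, Myl9 at 0.69 and −0.83, Cnn1 at 1.21 and −1.99, and Tpm2 at 0.81 and −0.92. The sum of all 10 genes was at 0.65 and −0.32, and that of the 7 genes without Myl9, Tpm1 and Tpm2 at 0.72 and −0.19. A lower level in Fgfr2 KO luminal keratin cells was not particular to these genes. The fibroblast list was at 929 against 2449 CPM in Ctrl and the linker list at 1198 against 1936 CPM. The immune and cell cycle lists were higher there. For Myl9 the basal value was 0.27 (−0.22 to 0.73) with cells thinned to 5000 UMIs, an interval that held 0. Its luminal value rested on 17 Fgfr2 KO UMIs, of which 1 cell held 14, and was −3.29 (−5.58 to −1.71) without that cell. With 1 library per group the difference between the classes was not tested, and the luminal values rest on few cells, since 12 of 148 luminal keratin cells held 60% of the contractile UMIs.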

How the results depend on the processing

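No paired analysis was possible because each group had a single library. The share of basal keratin cells lacking the programme in Ctrl, 8.82%, was 25.9% with no Ptprc filter, 21.2% with cells thinned to 5000 UMIs, 20.6% without Myl9, Tpm1 and Tpm2, 18.2% with Ptprc-positive cells set at 2 or more UMIs, and 66.2% with the threshold at the 95th percentile of luminal keratin cells, where Fgfr2 KO was lower at 54.5%. In Fgfr2 KO, 31.8% became 6.67% under the stricter keratin rule and 13.6% when lacking meant no Acta2 UMI. The log2 ratio of Fgfr2 KO over Ctrl in basal keratin cells, 0.65, was 0.94 under the stricter keratin rule, 0.88 with no Ptprc filter, 0.76 with Ptprc-positive cells set at 2 or more UMIs, 0.39 as a mean over cells, 0.44 without the richest cells, and 0.72 without Myl9, Tpm1 and Tpm2. The basal over luminal ratio in Ctrl, 1.53, was 1.28, 1.38, 2.03, 1.70 and 2.1 under these same alternatives after the keratin rule, and 2.06 with thinned cells. In Fgfr2 KO, 2.50 became 2.86 under the stricter keratin rule, then 2.76, 2.62, 3.09, 2.91 and 3.01 in that order, 2.94 with thinned cells and 2.73 without the cells called doublets. For Tpm1 the ratio of Fgfr2 KO over Ctrl in basal keratin cells changed sign, from −0.43 to 0.0439, with thinned cells, and that of Mylk from 0.32 to −0.26. Without the luminal keratin cell with 19 Rgs5 UMIs, an alternative chosen after seeing the data, Mylk in luminal keratin cells went from 1.11 to −0.35. The causes were not tested. Depth limits Oxtr, Myh11 and Actg2 most, with 0 or 1 UMI each in Fgfr2 KO luminal keratin cells.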
